A study of Mus musculus with 46 samples.

Results

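The genes described here are the cell-cycle brakes of the mouse: 3 inhibitors of the CIP/KIP family (Cdkn1a, Cdkn1b and Cdkn1c), 4 genes of the INK4 family (Cdkn2a, Cdkn2b, Cdkn2c and Cdkn2d) and 3 pocket proteins (Rb1, Rbl1 and Rbl2). They were picked by symbol, and all 10 were listed both among the 14360 genes of the table of tumour lines and among the 14056 genes of the table of the addback experiment. The choice was made with a low level of Cdkn1c in Rb/p53/Max mutant lines already known, so that difference is given as a description without a test.

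Transcripts were measured by RNA sequencing in cultured cells from thyroid tumours of mice. RPM lines (4 libraries, each of a line with its own name) are mutant for Rb, p53 and Max, and RP lines (4 libraries, likewise of separately named lines) for Rb and p53 only. In both, the conditional alleles were recombined by a Cre that Ascl drives in neuroendocrine cells and that tamoxifen switches on, so cells outside its reach were not targeted. In a separate experiment, an Rb/p53/Max mutant line was given Max again (Max addback, 3 libraries) or an empty vector (3 libraries), and by its name this line is that of RPM replicate 2. Every group therefore shares the Rb and p53 mutations, and the addback experiment is, by its names, of 1 line, whose replicates may be technical. The 32 tumour libraries of the series' 46 samples were not analysed here.

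Cyclin-dependent kinases (CDKs) drive the cell cycle once cyclins bind them. INK4 proteins bind CDK4 and CDK6 and keep D-type cyclins away, whereas CIP/KIP proteins bind cyclin-CDK complexes, above all those of CDK2. Pocket proteins hold E2F transcription factors in check until CDKs phosphorylate them, and RBL1 and RBL2, the relatives of RB, also recruit the DREAM complex, which silences cell-cycle genes in resting cells. MYC, which binds DNA together with MAX, is known to repress Cdkn1a and Cdkn2b through the zinc finger protein MIZ1.

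Promoter sequence is shown for the 3 start sites whose 250 upstream bases held a site searched for p53 or E2F. RefSeq (GRCm38.p6) windows were found for 8 of the 10 genes, 11 windows in all, read 5′ to 3′ on the gene's strand and ending just before the transcription start. Both strands were searched. The first window, chr17:29090729-29090978 on the plus strand, lies before the upstream start of Cdkn1a, with the paired p53 core (a pair of CATG cores with any 6 bases between them) in capitals.

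Cdkn1a upstream start: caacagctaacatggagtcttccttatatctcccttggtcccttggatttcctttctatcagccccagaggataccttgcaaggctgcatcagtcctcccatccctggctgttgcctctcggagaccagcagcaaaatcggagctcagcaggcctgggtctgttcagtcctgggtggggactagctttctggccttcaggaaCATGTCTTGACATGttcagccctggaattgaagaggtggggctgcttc

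The second, chr4:89294620-89294869 on the minus strand, lies before the upstream start of Cdkn2a, the one that serves the Arf transcript, with the E2F form TTTCCCGC in capitals. The third, chr2:157204535-157204784 on the minus strand, belongs to Rbl1 and shows the E2F form TTTCGCGC in capitals.

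Cdkn2a upstream start: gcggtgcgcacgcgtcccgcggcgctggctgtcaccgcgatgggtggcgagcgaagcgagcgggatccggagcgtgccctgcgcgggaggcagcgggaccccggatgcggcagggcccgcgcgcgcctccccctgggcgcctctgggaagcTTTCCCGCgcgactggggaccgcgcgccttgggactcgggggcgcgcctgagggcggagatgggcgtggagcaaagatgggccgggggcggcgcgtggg
Rbl1: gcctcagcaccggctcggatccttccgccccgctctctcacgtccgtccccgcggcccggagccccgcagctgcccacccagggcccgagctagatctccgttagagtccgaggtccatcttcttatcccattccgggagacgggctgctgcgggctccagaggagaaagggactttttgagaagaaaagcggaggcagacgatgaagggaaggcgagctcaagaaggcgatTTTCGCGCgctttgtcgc

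The p53 core began 48 bases before the Cdkn1a start and occurs in 0.49% of the 32851 windows of the table, all 250 bases long. The E2F forms began 99 bases before the Cdkn2a start and 18 bases before that of Rbl1, and occur in 0.895% and 0.256% of windows. The E-box CACGTG, the sequence MYC and MAX bind, occurs in 6.02% of windows and in none of the 11 examined. Such matches are letters in a window, not measured binding.

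Depth and identity of the libraries were looked at first. Levels are CPM, read counts scaled to library size with TMM factors, over 6738614 to 8498396 reads per library, and 3 reads were worth 0.353 to 0.458 CPM, a floor that covers counting error only. Max was read at 88.2 ± 16.2 CPM in RPM lines and 54.6 ± 8.8 CPM in RP lines (SD, n = 4 each), and at 240 ± 17.2 CPM with addback and 88.5 ± 6.73 CPM with empty vector (SD, n = 3 each). Rb1 is described below, and Trp53 stood at 9.72 to 17.5 CPM in RPM lines and 9.02 to 16.6 CPM in RP lines. Counts over a whole gene cannot show the loss of an exon, so none of these checks the genotype. The C cell and neuroendocrine markers summed to 7536.2 to 26172 CPM in RPM lines and 6180 to 8858 CPM in RP lines. Of these, 0 of 14 passed the test described below, where 0.334% of all genes passed. Calca, the calcitonin gene, averaged 5531 CPM in RPM and 1320 CPM in RP lines, and Scg2, a granin, 2812 CPM in RPM and 790 CPM in RP lines. The follicular genes Tg, Tshr and Slc26a4, the leukocyte gene Ptprc and the fibroblast genes Col1a2, Col3a1 and Pdgfra were not listed in either table.

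A pair of libraries calls for care. The animal named on RPM replicate 1 is also named on tumour libraries labelled Rb/p53 mutant. Of the 4 RPM lines, replicate 1 was the highest or the lowest at 10 of 10 genes, 5 times each, against 58.3% of all genes in the table. RPM replicate 2 held the other extreme at 8 of 10, against 53% of all genes. Among addback libraries, replicate 3 stood apart, with 1069 CPM of the proliferation gene Mki67 against 1958 and 2030 CPM in the other 2. Addback libraries held no Ddx3y, a Y-linked gene, which stood at 157 to 177 CPM with empty vector and at 125 CPM in untransduced RPM replicate 2. Of 3 other Y-linked genes, Eif2s3y averaged 0 CPM with addback and 120 CPM with empty vector, Kdm5d 0.0415 CPM with addback and 65.9 CPM with empty vector, and Uty 0.0857 CPM with addback and 64.4 CPM with empty vector (n = 3 each). Xist, the X-linked RNA listed with these genes, stood at 0.386 to 5.47 CPM with addback and 1.14 to 1.86 CPM with empty vector. Xist and the Y-linked genes together summed to 0.643 to 5.47 CPM with addback, against 411 to 425 CPM with empty vector. In the untransduced lines that sum was 110 to 1958 CPM in RPM and 106 to 5043 CPM in RP lines. Whether both arms came from the same line cannot be told from the labels and these values. What Max did and what else set these transduced cells apart cannot be told apart.

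**Figure D1:**
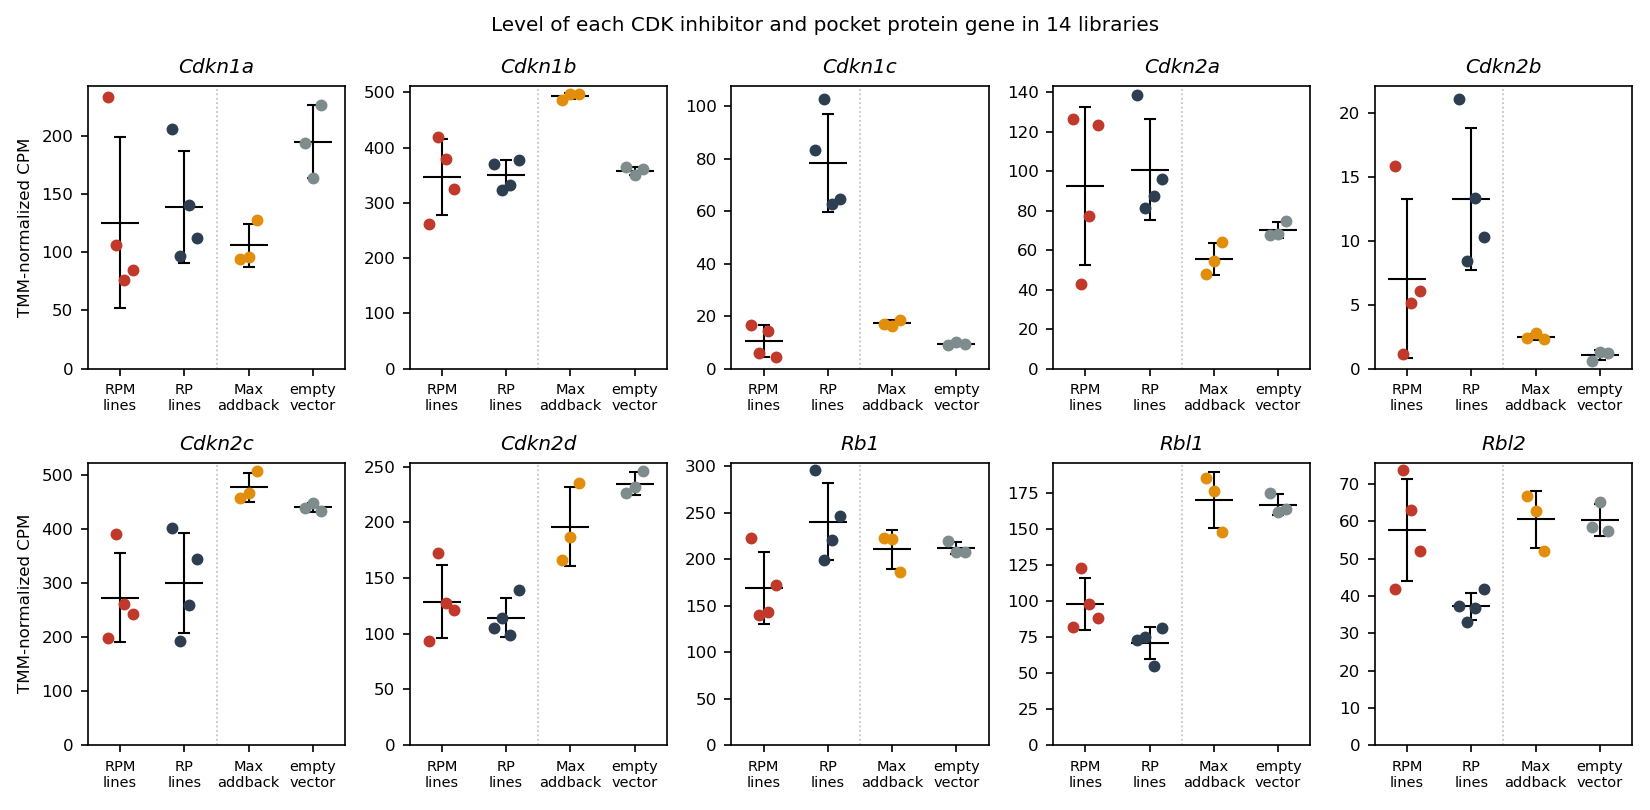
Level of each of the 10 genes in TMM-normalized CPM (vertical axis, from 0) in RPM lines, RP lines, Max addback and empty vector libraries. Each point is 1 library, bars are the mean and SD, and the dotted line parts 2 tables that were normalised separately. Cdkn1c lies at 4.21 to 16.7 CPM in RPM lines, below all RP lines at 62.9 to 103 CPM.

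Cdkn1c, which encodes p57, was the member with the widest gap between the lines. It is an imprinted CIP/KIP inhibitor, expressed from the maternal copy, and is ENSMUSG00000037664.13, chr7:143458339-143461050, minus strand (mm10). Its level was 16.7, 6.11, 14.4 and 4.21 CPM in RPM replicates 1 to 4, against 83.4, 103, 62.9 and 64.6 CPM in RP replicates 1 to 4. All RPM lines lay below all RP lines, and within the RPM lines replicates 1 and 3 held more than replicates 2 and 4. The means were 10.4 ± 6.14 CPM and 78.4 ± 18.7 CPM in RPM and RP lines (SD, n = 4 each), and the log2 change was -2.96. All log2 changes were taken on log2(CPM + 1), where the 1 added shrinks those of low genes. Over all processing alternatives and with each library left out it ranged from -3.23 to -2.64. Without RPM replicate 1 it was -3.23. In bulk RNA, fewer cells that express a gene and less RNA per cell cannot be told apart.

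With Max addback Cdkn1c moved the other way. It stood at 17.2, 16.3 and 18.6 CPM with addback, against 9, 10.1 and 9.47 CPM with empty vector, and the groups did not overlap. Its change was 0.80 on the log2 scale (SE 0.12, limma adjusted p = 0.000268). limma's moderated test on log2(CPM + 1) was used throughout, with p-values adjusted over all listed genes by the Benjamini-Hochberg method, a threshold of 0.05 and both sides tested. The addback level of 17.4 ± 1.17 CPM (SD, n = 3) remained below the lowest RP line, 62.9 CPM, though these values come from tables normalised separately and were not tested against each other. Untransduced RPM replicate 2, of that line by name, held 6.11 CPM. An antisense gene, Gm44732, shares 625 exon bases with Cdkn1c, and the strand setting of the counting was not stated in the labels.

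Cdkn1a (ENSMUSG00000023067.14, chr17:29090976-29100727, plus strand), which encodes p21, the classical inhibitor induced by p53, fell with Max addback. Its level was 94.3, 95.9 and 127 CPM with addback, against 194, 164 and 227 CPM with empty vector. All addback libraries lay below all empty vector libraries, with addback replicate 3 the nearest to them. The means were 106 ± 18.6 CPM and 195 ± 31.4 CPM with addback and empty vector (SD, n = 3 each), with a log2 change at -0.88 ± 0.14 (SE) and limma adjusted p = 0.000523. Untransduced RPM replicate 2, by name that line in the other table, held 106 CPM, near the addback level. A gene on the opposite strand, AC167363.2, shares 273 exon bases with Cdkn1a.

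Between the lines Cdkn1a varied more within each group than between them. It stood at 234, 106, 75.9 and 84.3 CPM in RPM replicates 1 to 4, against 206, 96.7, 140 and 112 CPM in RP replicates 1 to 4. The groups overlapped, and replicate 1 was the highest in each. That left a log2 change of -0.24 with a 95% interval from -1.09 to 0.61 (limma adjusted p = 0.780), an interval that holds a change in either direction. It was -0.59 without RPM replicate 1 and -0.03 without RP replicate 1. These cells are p53 mutant, and Cdkn1a was read at 75.9 CPM or more in all 14 libraries.

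Cdkn1b (ENSMUSG00000003031.14, chr6:134920401-134925513, plus strand), which encodes p27, rose with addback. It reached 487, 497 and 497 CPM with addback, against 364, 350 and 361 CPM with empty vector. The groups did not overlap and the libraries of each lay close together. Its log2 change was 0.46 (SE 0.07, limma adjusted p = 0.000409). In RPM replicates 1 to 4 the level was 262, 419, 380 and 324 CPM, against 370, 324, 332 and 377 CPM in RP replicates 1 to 4. The RPM lines spanned the whole RP range, and the log2 change was -0.04 (95% interval -0.40 to 0.33, limma adjusted p = 0.925).

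The make-up of the CIP/KIP family was read from RPKM, the deposited levels per length of gene, in which genes can be compared. Cdkn1b took most of the summed RPKM in every group, with 66.3 ± 15.1% in RPM and 50.2 ± 4.98% in RP lines (SD, n = 4 each), and 74.0 ± 2.71% with addback and 57.1 ± 3.22% with empty vector (SD, n = 3 each). Cdkn1c took 4.27 ± 2.32% in RPM lines, with 2.13 to 6.33% in single lines, and 25.0 ± 5.98% in RP lines, with 21.5 to 33.9%. In the addback experiment its share was 5.80 ± 0.218% with addback and 3.40 ± 0.41% with empty vector. The family sum was 116 ± 15.2 RPKM in RPM lines and 155 ± 17.2 RPKM in RP lines. In RPM replicate 1 Cdkn1a made up 50.02% of the family, against 19.1 to 24.5% in the other RPM lines.

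**Figure D2:**
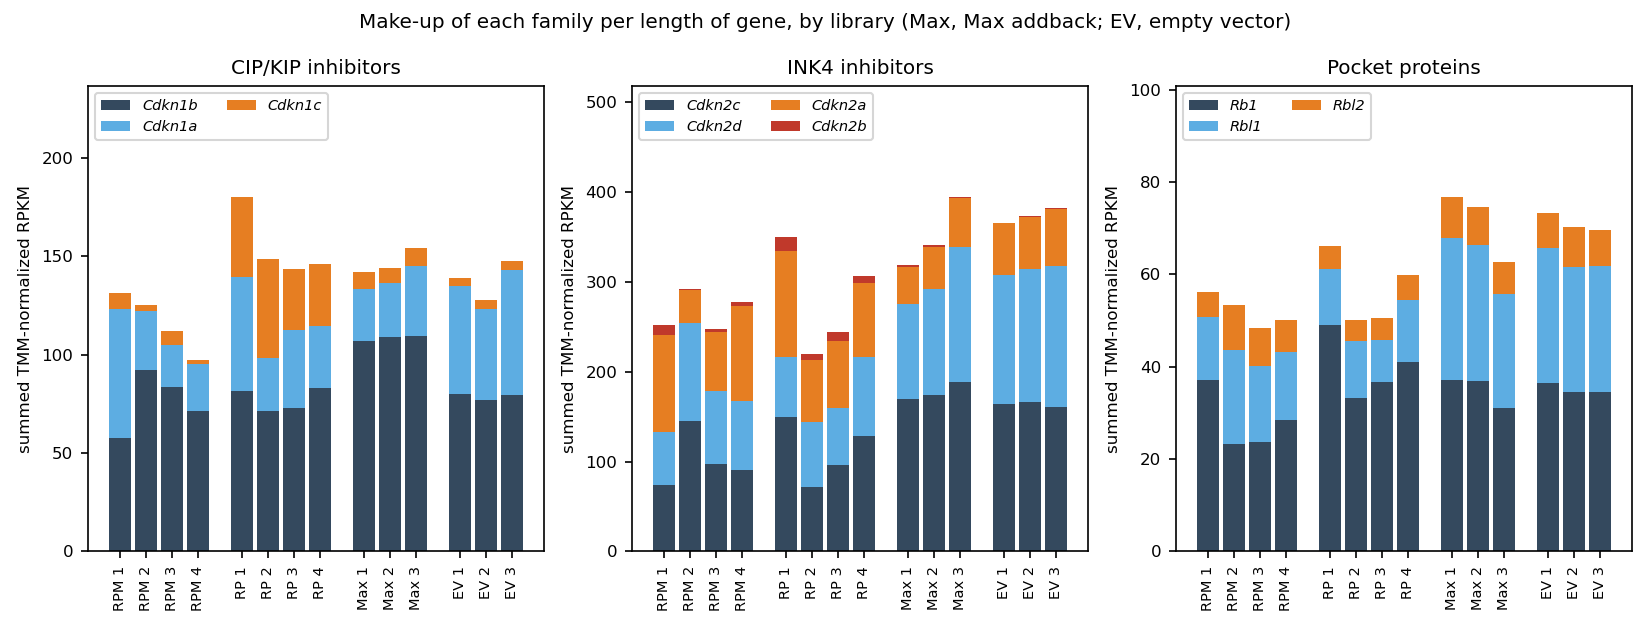
Summed TMM-normalized RPKM (vertical axis, from 0) of the CIP/KIP, INK4 and pocket protein families in each library, with 1 bar a library and 1 colour a gene. Cdkn1c makes up 2.13 to 6.33% of the CIP/KIP sum in RPM lines and 21.5 to 33.9% in RP lines, and Rb1 43.4 to 65.8% of the pocket protein sum in RPM lines and 66.2 to 74.2% in RP lines.

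Of the INK4 genes, Cdkn2b rose with addback from a very low base. Its product p15 is best known as a CDK4 and CDK6 inhibitor induced by TGF-beta, and the gene (ENSMUSG00000073802.5, chr4:89306299-89311039, minus strand) lies beside Cdkn2a. It was read at 2.42, 2.74 and 2.31 CPM with addback, against 0.572, 1.28 and 1.22 CPM with empty vector, which are 19, 22 and 18 reads against 4, 9 and 8 reads. The groups did not overlap. The log2 change was 0.80 (SE 0.19, limma adjusted p = 0.00511), and 1.27 in the authors' deposited table, where no pseudocount of 1 shrinks it. In the lines Cdkn2b stood at 15.8, 1.12, 5.09 and 6.07 CPM in RPM replicates 1 to 4, against 21.1, 8.42, 13.3 and 10.2 CPM in RP replicates 1 to 4. RPM replicate 1 was the only RPM line within the RP range. Its log2 change there was -1.11 with a 95% interval from -2.45 to 0.23 (limma adjusted p = 0.383). It was -1.59 without RPM replicate 1 and -0.59 without RPM replicate 2.

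Cdkn2a fell slightly with addback. The gene (ENSMUSG00000044303.6, chr4:89274471-89294653, minus strand) encodes both p16Ink4a, a CDK4 and CDK6 inhibitor, and p19Arf, which restrains MDM2. Gene counts cannot separate the 2 transcripts, whose starts differ. It was at 47.9, 54.4 and 64.0 CPM with addback, against 67.9, 68.1 and 74.8 CPM with empty vector. The groups did not overlap, although addback replicate 3 came within a few CPM of the empty vector libraries. The log2 change was -0.34 (SE 0.11, limma adjusted p = 0.0226). This call was lost on leaving out any 1 library other than addback replicate 3, with adjusted p = 0.0540 to 0.0967 by limma. In the lines the level was 127, 42.9, 77.4 and 123 CPM in RPM replicates 1 to 4, against 138, 81.3, 87.5 and 96.3 CPM in RP replicates 1 to 4, with overlapping groups (log2 change -0.21, 95% interval -0.999 to 0.57, limma adjusted p = 0.788).

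Cdkn2d (ENSMUSG00000096472.2, chr9:21288410-21291407, minus strand), which encodes p19Ink4d, lay at 166, 186 and 235 CPM with addback, against 226, 232 and 246 CPM with empty vector. Addback replicate 3 alone reached the empty vector range. The log2 change was -0.27 (SE 0.12, limma adjusted p = 0.0745), and -0.41 (adjusted p = 5.52e-06) without addback replicate 3. In the lines Cdkn2d spanned 93 to 172 CPM in RPM and 98.9 to 139 CPM in RP libraries (log2 change 0.15, 95% interval -0.30 to 0.59, limma adjusted p = 0.736).

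Cdkn2c (ENSMUSG00000028551.14, chr4:109660876-109667189, minus strand), which encodes p18Ink4c, was the most abundant of the 10 genes in RPKM in every group, at 102 ± 30.8 RPKM in RPM and 112 ± 34.5 RPKM in RP lines (SD, n = 4 each) and 178 ± 9.88 RPKM with addback and 164 ± 2.8 RPKM with empty vector (SD, n = 3 each). Its addback libraries, at 457, 467 and 507 CPM, all lay above its empty vector libraries, at 439, 447 and 432 CPM. That gap was small, with a log2 change of 0.12 (95% interval -0.06 to 0.29, limma adjusted p = 0.232). In the lines it spanned 197 to 390 CPM in RPM and 192 to 402 CPM in RP libraries, the same range (log2 change -0.13, 95% interval -0.75 to 0.50, limma adjusted p = 0.852).

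In the lines the order of the 10 genes by RPKM had few clear steps. In RPM lines Cdkn2c, Cdkn2d, Cdkn2a, Cdkn1b, Cdkn1a and Rb1 followed one another with overlapping ranges of neighbours, then came Rbl1 at 16.3 ± 2.98 RPKM, separate from Rb1 above and Rbl2 below. Rbl2, Cdkn1c and Cdkn2b came last at 7.64, 5.09 and 5.05 RPKM, with overlapping ranges. In RP lines Cdkn1c stood seventh instead, at 38.5 ± 9.17 RPKM (SD, n = 4), overlapping Cdkn1a and Rb1 and separate from Rbl1 below it. Rbl2 was the lowest in RP lines, at 4.93 ± 0.474 RPKM. With addback and with empty vector Cdkn2c, Cdkn2d and Cdkn1b led and Cdkn2b came last. The steps were clearer there. With empty vector Cdkn2a and Cdkn1a were the only neighbours with overlapping ranges. With addback Cdkn2d and Cdkn1b, Rb1 and Cdkn1a, Cdkn1a and Rbl1, and Cdkn1c and Rbl2 overlapped.

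Among the pocket proteins, Rb1 (ENSMUSG00000022105.6, chr14:73183673-73325822, minus strand) is one of the genes mutated in all groups and was still read throughout. It stood at 223, 140, 143 and 172 CPM in RPM replicates 1 to 4, against 296, 199, 220 and 246 CPM in RP replicates 1 to 4. RPM replicate 1 lay within the RP range and the other RPM lines below it. The log2 change was -0.51 (SE 0.18, limma adjusted p = 0.254). Its counts may hold reads of the opposite-strand genes Rcbtb2 and Lpar6, which share 488 and 408 exon bases with it. With addback Rb1 was at 223, 222 and 187 CPM, against 219, 208 and 208 CPM with empty vector (log2 change -0.01, 95% interval -0.21 to 0.18, limma adjusted p = 0.916).

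Rbl1 (ENSMUSG00000027641.13, chr2:157145893-157204534, minus strand), which encodes p107, and Rbl2 (ENSMUSG00000031666.15, chr8:91070057-91123844, plus strand), which encodes p130, lay higher in RPM lines without passing the test. Rbl1 was at 81.9, 123, 98.1 and 88.4 CPM in RPM replicates 1 to 4, against 72.5, 75.0, 54.7 and 81.0 CPM in RP replicates 1 to 4 (log2 change 0.46, SE 0.17, limma adjusted p = 0.269). Rbl2 was at 42.0, 73.8, 63.0 and 52.1 CPM in RPM replicates 1 to 4, against 37.4, 33.1, 36.7 and 41.8 CPM in RP replicates 1 to 4 (log2 change 0.59, SE 0.19, limma adjusted p = 0.216). For both genes all RPM lines lay above all RP lines, though the lowest RPM and the highest RP line were nearly level. Rbl2 shares 693 exon bases with Aktip and 892 with Gm45464, both on the opposite strand.

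On addback both lay near their empty vector levels. Rbl1 was at 185, 176 and 148 CPM with addback, against 175, 162 and 164 CPM with empty vector (log2 change 0.02, 95% interval -0.19 to 0.23, limma adjusted p = 0.869). Rbl2 was at 66.9, 62.8 and 52.0 CPM with addback, against 58.5, 65.4 and 57.6 CPM with empty vector (log2 change -0.00, 95% interval -0.24 to 0.23, limma adjusted p = 0.983). In each, addback replicate 3 was the lowest. In summed RPKM of the pocket proteins, Rb1 made up 53.8 ± 9.75% in RPM and 70.3 ± 3.67% in RP lines (SD, n = 4 each), and 49.1 ± 0.722% with addback and 49.5 ± 0.298% with empty vector (SD, n = 3 each).

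**Figure D3:**
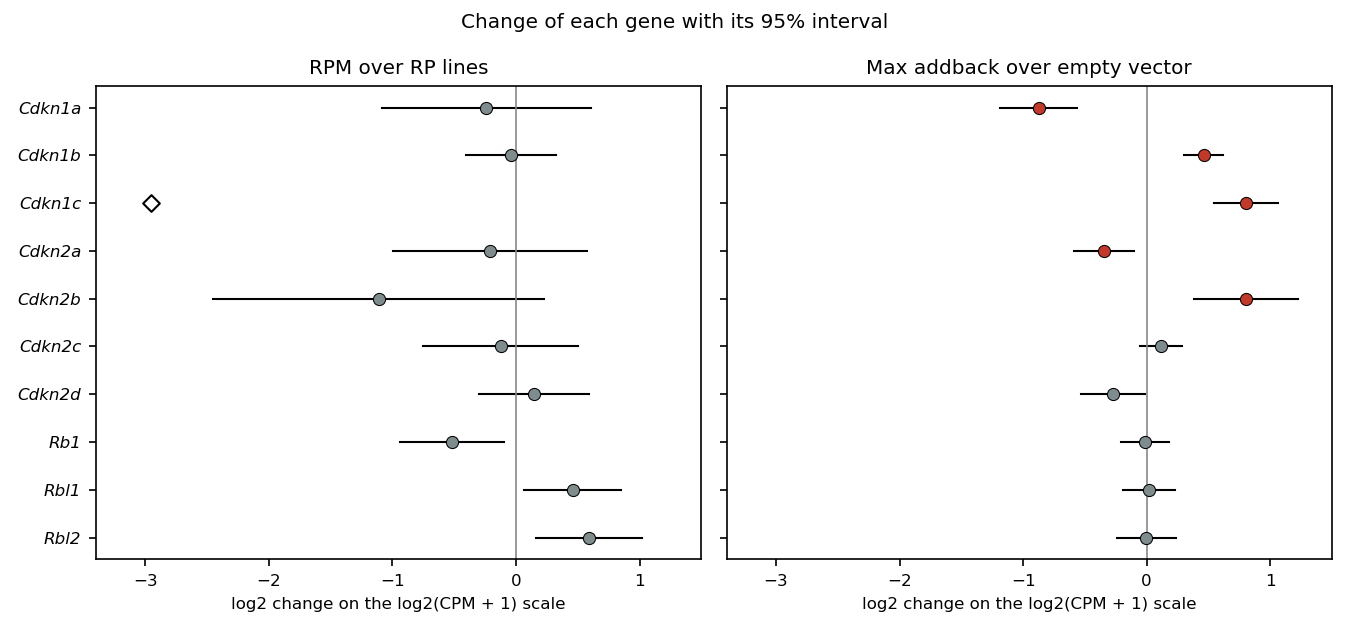
Log2 change of each gene (horizontal axis, log2(CPM + 1) scale) in RPM over RP lines on the left and in Max addback over empty vector on the right, with 95% intervals from limma. Red points passed the adjusted threshold of 0.05 and grey points did not, and the open diamond is Cdkn1c in the lines, given without a test. Cdkn1b, Cdkn1c and Cdkn2b are higher and Cdkn1a and Cdkn2a lower with addback.

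Counted together, 0 of the 9 genes other than Cdkn1c passed in RPM over RP lines by limma, edgeR or DESeq2, where limma called 0.334% of all genes. An unadjusted limma p under 0.05 was found for 3 of the 9, Rb1, Rbl1 and Rbl2, against 15.9% of all genes. Groups did not overlap at 2 of the 9, both higher, against 9.37% of all genes (4.97% higher and 4.39% lower). Without RPM replicate 1 limma called 1.82% of all genes and again 0 of the 9. With addback 5 of 10 passed, 3 higher and 2 lower, which lies near the 53.2% called among all genes (27.7% higher and 25.5% lower). Groups did not overlap at 6 of 10, 4 higher and 2 lower, against 61.9% of all genes (31.7% higher and 30.2% lower). Without addback replicate 3, 6 of 10 passed, where limma called 64.3% of all genes. Cdkn1a, Cdkn1b, Cdkn1c and Cdkn2b passed with each of the 6 libraries left out in turn. Without addback replicate 3 their log2 changes were -1.01, 0.46, 0.75 and 0.84. The authors' deposited table calls Cdkn1c and Cdkn2b higher and Cdkn1a lower with addback, and does not call Cdkn1b or Cdkn2a, whose FDR in that table is 0.000402 and 0.00801.

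The changes in the lines and on addback were set against each other in 1 fit over 14 libraries. The quantity tested was the log2 change of RPM over RP minus that of empty vector over addback. It equals the sum of both changes given above and is 0 where addback mirrors the difference of the lines. limma called 15.1% of the 13528 genes in both tables and 0 of the 9 genes tested, with an unadjusted p under 0.05 for 5 of the 9, against 30.2% of all genes. Without RPM replicate 1 it called 4, Cdkn1a, Cdkn1b, Rb1 and Rbl2, against 2441 of the 13528 genes in all, and without addback replicate 3 it called 3, Cdkn1a, Rbl1 and Rbl2, against 17.5% of all genes. For Cdkn1a the sum was -1.12 (SE 0.41, limma adjusted p = 0.0789), with both changes below 0. For Cdkn1c the changes were -2.96 in the lines and 0.80 on addback, with no test.

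Over the 8 line libraries, the 5 genes whose log2(CPM + 1) followed Cdkn1c most closely were Trim72, Gsk3a, Pcdhb5, Fetub and Kif19a, with Pearson's r of 0.976, 0.972, 0.971, 0.968 and 0.961. These are descriptions over libraries that share the group difference, and Pcdhb5 belongs to a family whose reads can fall on near-identical copies. Fetub, a secreted protease inhibitor, averaged 18.4 ± 6.45 CPM in RPM and 46.6 ± 6.68 CPM in RP lines (SD, n = 4 each). On addback it rose to 10.7 ± 2.67 CPM, against 0.146 ± 0.143 CPM with empty vector (SD, n = 3 each), with a log2 change at 3.33 ± 0.21 (SE) and limma adjusted p = 6.90e-07. Pcdhb5, a protocadherin, rose by 2.43 on the log2 scale (SE 0.20, limma adjusted p = 6.29e-06). Trim72 and Gsk3a had log2 changes of 0.36 and 0.16 on addback and did not pass (limma adjusted p = 0.150 and 0.0778). Kif19a was not listed in the addback table. Trim72 averaged 0.310 CPM in RPM lines, under the floor of 3 reads, and 1.17 CPM in RP lines, so its r rests on few reads. Fetub with empty vector lies under the floor too. Where a group does so, the log2 change depends on the pseudocount and is no bound.

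Genes near Cdkn1c on distal chromosome 7, a region with several imprinted genes, were examined next. In RPM over RP lines 0 of the 9 listed passed, against 0.334% of all genes. All 9 had changes below 0, and their median log2 change was -0.83, against -0.01 over all genes. Nap1l4, a histone chaperone, averaged 194 ± 30.9 CPM in RPM and 273 ± 35.6 CPM in RP lines, and Cd81, a tetraspanin, 186 ± 60.1 CPM in RPM and 191 ± 31.4 CPM in RP lines (SD, n = 4 each). With addback 3 of 10 rose and 1 fell, with a median of -0.10, against -0.00 over all genes, of which 27.7% rose and 25.5% fell. Kcnq1, a potassium channel, rose to 49.1 ± 6.06 CPM, against 0.63 ± 0.355 CPM with empty vector (SD, n = 3 each), with a log2 change at 4.96 ± 0.18 (SE) and limma adjusted p = 2.11e-08. Untransduced RPM replicate 2, of that line by name, held 49.9 CPM of Kcnq1. Osbpl5 and Slc22a18 rose by 1.35 and 0.59 on the log2 scale. Slc22a18 averaged 0.927 CPM with addback and 0.299 CPM with empty vector, the latter under the floor of 3 reads. The tRNA synthetase gene Cars fell by 0.26, and the noncoding RNA Kcnq1ot1 did not pass (log2 change -0.22, limma adjusted p = 0.110). Beside Cdkn2a and Cdkn2b, 0 of 3 listed genes passed in the lines, against the same 0.334% of all genes, with a median of -0.06. There Klhl9 averaged 121 and Mtap 68.1 CPM in RPM and 112 and 70.1 CPM in RP lines. With addback Mtap, of methionine salvage, and Focad fell by 1.00 and 0.69 on the log2 scale. These were 2 of 3 genes, against 25.5% lower among all genes, and the 3 had a median of -0.69.

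The kinases and cyclins on which the inhibitors act showed no called member in the lines. That was 0 of 12 listed, against 0.334% of all genes, with a median log2 change of 0.26. With so few calls, 0 does not set a list apart. Cdk4 averaged 386 ± 72.7 CPM in RPM and 420 ± 57 CPM in RP lines, and Cdk1 269 ± 83.4 CPM in RPM and 173 ± 26.3 CPM in RP lines (SD, n = 4 each). With addback 0 of 13 rose and 4 fell, against 27.7% and 25.5% of all genes, with a median of -0.18. Ccna2, the S phase cyclin, fell to 267 ± 14.9 CPM, against 390 ± 9.91 CPM with empty vector (SD, n = 3 each), and Ccne1, the partner of CDK2 at S phase entry, to 68.9 ± 4.38 CPM, against 103 ± 4.09 CPM. Their log2 changes were -0.55 and -0.58 (SE 0.08 each, limma adjusted p = 0.000188 and 0.000181). Cdk1 had a log2 change of -0.33, and Ccnd2 of -1.21 from very few reads, 0.21 CPM with addback and 1.87 CPM with empty vector. Without addback replicate 3, 8 of the 13 fell, against 4460 of the 14056 genes in all.

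Genes of p27 and p57 turnover include the ubiquitin ligase subunits that mark inhibitors for destruction. In the lines 0 of 14 were called, against 0.334% of all genes, with a median of 0.12. Ddb1 averaged 626 CPM in RPM and 584 CPM in RP lines, and Skp1a 251 CPM in RPM and 253 CPM in RP lines. Of the 14, 3 rose and 5 fell with addback, beside 27.7% and 25.5% of all genes, with a median of -0.13. Fbxw7, the F-box protein that directs cyclin E and MYC to degradation, rose to 61 ± 1.26 CPM, against 19.3 ± 1.62 CPM with empty vector (SD, n = 3 each), with a log2 change at 1.61 ± 0.09 (SE) and limma adjusted p = 4.56e-07. Dtl, Cul4a and Ddb1, subunits of 1 ligase that acts on p21, fell by 0.59, 0.44 and 0.43 on the log2 scale (limma adjusted p = 0.000169, 0.000400 and 0.000913). Cul4b and Rbx1, of the same kind of ligase, rose by 0.27 and 0.34 (limma adjusted p = 0.0145 and 0.0217). Skp2, the F-box protein that recognises p27, fell by 0.38 (limma adjusted p = 0.00484). Skp2, Cul4b and Rbx1 are named besides the largest changes, after their values were seen.

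Downstream of the pocket proteins, 0 of 12 DREAM and MuvB genes were called in the lines, against 0.334% of all genes, with a median of 0.09. Rbbp4 and Tfdp1 averaged 483 and 275 CPM in RPM and 586 and 228 CPM in RP lines. With addback 0 rose and 6 fell, where 27.7% of all genes rose and 25.5% fell, with a median of -0.14. Foxm1, a mitotic transcription factor, fell to 173 ± 13.4 CPM, against 282 ± 3.58 CPM with empty vector (SD, n = 3 each), with a log2 change at -0.70 ± 0.08 (SE) and limma adjusted p = 4.60e-05, and E2f5, Rbbp4 and Tfdp2 fell by 0.65, 0.33 and 0.32. Of 30 E2F target genes 0 passed in the lines, against the same 0.334% of all genes, with a median of -0.02. Mki67 and the methyltransferase Dnmt1 averaged 1509 and 648 CPM in RPM and 1821 and 875 CPM in RP lines. With addback 4 of the 30 rose and 14 fell, set against the same 27.7% and 25.5% of all genes, with a median of -0.21. Ccna2 and Ccne1, described with the cyclins, are in this list too and are counted again among the 14. Ezh2 is also in the list of regulators of inhibitor genes below. Rrm2, a subunit of ribonucleotide reductase, fell to 481 ± 17.1 CPM, against 1117 ± 27.6 CPM with empty vector (SD, n = 3 each), with a log2 change at -1.21 ± 0.08 (SE) and limma adjusted p = 1.16e-06. Orc1, of replication origins, and Ezh2, the Polycomb methyltransferase, fell by 0.74 and 0.70.

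The p53 target list, without Cdkn1a itself, had 0 of 15 listed genes called in the lines, against 0.334% of all genes. Its median was 0.16. Btg2 averaged 179 CPM in RPM and 158 CPM in RP lines, and Ei24 120 CPM in RPM and 121 CPM in RP lines. With addback 1 rose and 7 fell, against 27.7% higher and 25.5% lower among all genes, with a median of -0.20. Plk2, Aen and Sesn1, a kinase, a nuclease and a stress sensor, fell by 0.86, 0.73 and 0.59 on the log2 scale (limma adjusted p = 4.95e-05, 0.000205 and 0.000367). Phlda3 rose by 0.97 at 1.35 CPM, against 0.197 CPM with empty vector (limma adjusted p = 0.00121), which is under the floor of 3 reads.

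Among 20 MYC and MIZ1 cofactors and other regulators of inhibitor genes, 1 was called in the lines, against 0.334% of all genes. The median was -0.09. The gene called was Mnt, a repressor that pairs with MAX, at 112 ± 12.8 CPM in RPM and 55.8 ± 3.17 CPM in RP lines (SD, n = 4 each, limma adjusted p = 0.0325). No gene at all was called with libraries blocked by replicate number, so this call was lost there. The same held without RPM replicate 3, RPM replicate 4 or RP replicate 3. With addback 7 of the 19 listed rose and 5 fell, shares to be read against 27.7% and 25.5% of all genes, with a median of 0.22 and Max itself among those higher. Smad3, which carries TGF-beta signals to Cdkn2b, rose to 43.8 ± 0.855 CPM, against 13.7 ± 2.08 CPM with empty vector (SD, n = 3 each), with a log2 change at 1.62 ± 0.12 (SE) and limma adjusted p = 2.13e-06. Its partners Smad2 and Smad4, named after their values were seen, fell by 0.28 and 0.29 on the log2 scale (limma adjusted p = 0.0187 and 0.0281). Foxo1, a FOXO factor of the kind known to activate Cdkn1b, rose by 1.26 (SE 0.11, limma adjusted p = 8.03e-06). Other FOXO genes, named after their values were seen, lay on either side. Foxo3 stood higher, at 112 to 123 CPM with addback and 93.2 to 106 CPM with empty vector. Foxo4 stood lower, at 44.2 to 55.8 CPM with addback and 58.3 to 68.1 CPM with empty vector.

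**Figure D4:**
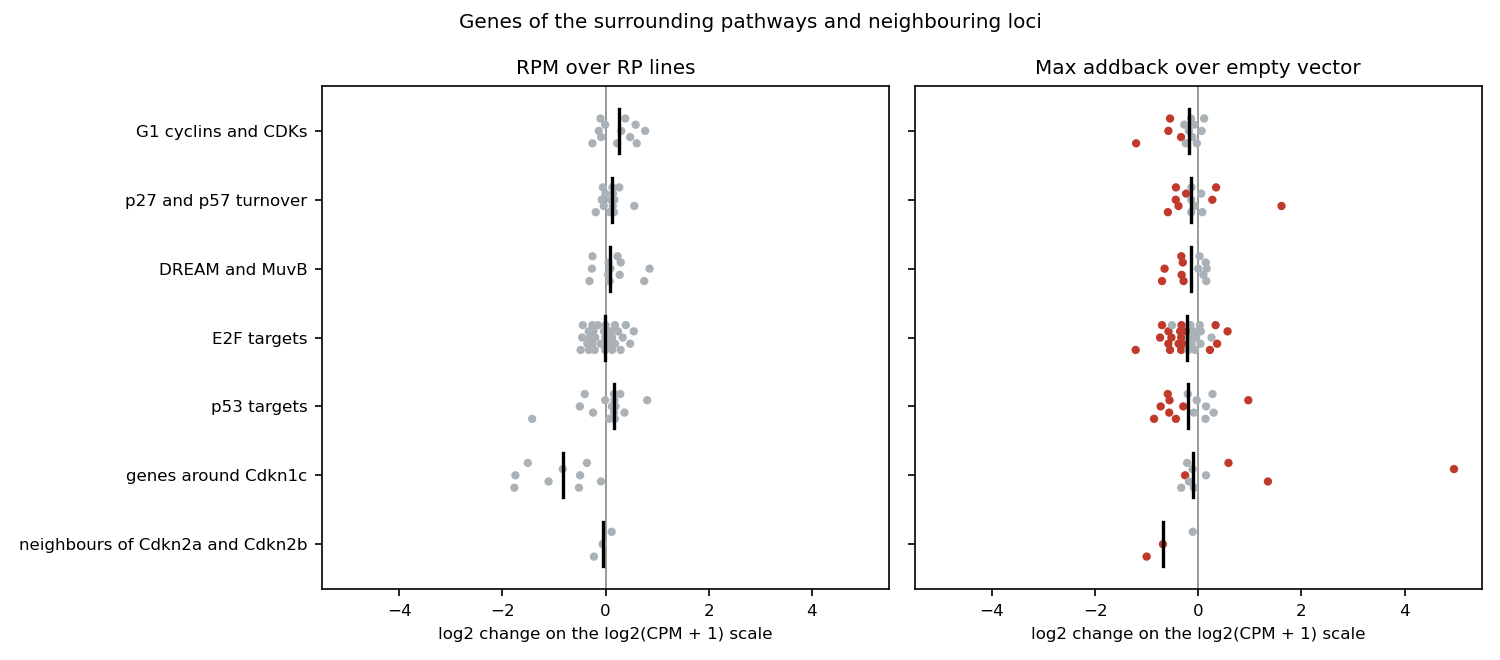
Log2 change (horizontal axis, log2(CPM + 1) scale) of every listed gene in 7 lists around the inhibitors and pocket proteins, in RPM over RP lines on the left and Max addback over empty vector on the right. Each point is 1 gene, red where it passed the threshold and grey where it did not, and the black bar is the median of the list. Ccna2 and Ccne1 are shown both with the cyclins and with the E2F targets. No gene of these lists passed in the lines, where 0.334% of all genes did, and all 9 genes around Cdkn1c lie below 0 there. Of the E2F targets 14 are lower and 4 higher with addback, against 25.5% and 27.7% of all genes.

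Cell type markers moved with the addback as well. Of 14 C cell and neuroendocrine markers 13 rose, against 27.7% of all genes, with a median log2 change of 1.62. The 1 that did not was Calca, the calcitonin gene, at 2386 to 2876 CPM with addback and 2693 to 2932 CPM with empty vector. The summed level of the 14 was 11548 to 12907 CPM with addback and 6128 to 6487 CPM with empty vector. Pcsk1, a prohormone convertase, reached 270 ± 47.3 CPM with addback, against 0.536 ± 0.0952 CPM with empty vector (SD, n = 3 each), and the granin genes Chgb and Scg3 and Calcb rose by 2.26, 2.17 and 3.43 on the log2 scale. Of other cell types, 1 of 3 listed follicular genes fell (Pax8, at 0.21 CPM with addback and 1.31 CPM with empty vector), 2 fibroblast genes rose (Pdgfrb and Thy1) and 2 fell (Dcn and Col1a1), 1 of 2 endothelial genes rose (Vwf), and the leukocyte gene Cd68 did not pass. In the lines 0 of 2 follicular, 0 of 4 fibroblast, 0 of 1 endothelial and 0 of 1 leukocyte genes passed. Of all genes 0.334% passed there. The part of these cell type markers in the changes of the inhibitors was not tested.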

How the data were processed

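RNA was sequenced from 4 RPM and 4 RP lines and from 3 addback and 3 empty vector libraries, 14 in all. Per the submitters' processing notes the tools were bcl2fastq 1.8.4, TopHat2 2.1.0, HTSeq 0.6.1 and edgeR (no version given), and the build was mm10. Per the file headers, each gene has a deposited CPM signal and a deposited RPKM value per library, both TMM-normalised by the authors. The same headers name deposited log2 fold changes, log2 averages, p-values, FDR values and a call score (-1, 0 or 1). The table of the lines and that of the addback experiment were normalised separately and were fitted alone, except in the fit over 14 libraries, where both differences of the contrast lie within 1 table each. The filter behind the listed genes and the strand setting of the counting are not stated in the labels or headers.

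Dividing CPM by the value of 1 read gave whole reads within 0.01 read for 100% of values. The design named edgeR for raw counts and limma-trend for normalised values. As the tables hold normalised values, limma-trend (limma 3.58.1, R 4.3.3) was run on log2(CPM + 1) over all listed genes, without covariates, with array weights per experiment in the fit over 14 libraries. edgeR 4.0.16 and DESeq2 1.42.0 were alternatives on the recovered reads. Gene coordinates are from GENCODE vM21 on GRCm38, the assembly of mm10.

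The members, lists and tests were chosen with earlier results of these data known. All 10 genes are named. Of each other list the genes past the threshold with the largest absolute log2 change are named, up to 4 a list and comparison, or the 2 with the highest mean CPM where none passed, and for Cdkn1c the 5 genes most correlated with it. Besides these, Skp2, Cul4b, Rbx1, Smad2, Smad4, Foxo3, Foxo4 and Kcnq1ot1 were named after their values were seen. So were Mki67, Calca and Xist on addback, Ptprc and the other unlisted markers. All p-values rest on the spread between these libraries, which may be technical on addback.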

Additional observations from a re-analysis of the deposited data

Results flagged for a closer look

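Trp53, one of the mutated genes, stood at 16.6 CPM in RP replicate 4, against 9.02, 10.1 and 10.2 CPM in the other RP lines. Its gap to the nearest other line was 0.8394 of the range of the group, above the critical value of Dixon's test for 4 samples. In all 24 groups of 4 were examined, and chance alone marks about 1 in 20. Counts over the whole gene do not show whether the p53 allele was recombined.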

How the results depend on the processing

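The count of all genes called in RPM over RP lines, 48, was 0 with the replicate block (2463 at an unadjusted limma p under 0.05), 3 by edgeR and 658 by DESeq2. It was 0 to 261 with 1 library left out, 261 without RPM replicate 1 and 0 when RPM replicate 3, RPM replicate 4 or RP replicate 3 was left out (1805, 1692 and 1469 unadjusted). No such setting called any of the 9 genes tested there. Genes whose change differed between the comparisons numbered 2049, 1195 without array weights, 3835 by voom and 1410 to 2441 with 1 library left out. Of the 9 inhibitor and pocket protein genes 0 were called, but 4 by voom (Cdkn1a, Cdkn1b, Rb1 and Rbl2), 4 without RPM replicate 1 and 3 without addback replicate 3, so the range over left-out libraries was 0 to 4. Changes close to 0 switched sign: Rbl2 on addback was 0.0023 by edgeR and 0.0057 by DESeq2, and with 1 library left out the log2 change ranged from -0.14 to 0.089 for Cdkn1b, -0.40 to 0.11 for Cdkn2a, -0.32 to 0.034 for Cdkn2c and -0.0043 to 0.29 for Cdkn2d in the lines, and from -0.056 to 0.072 for Rb1, -0.045 to 0.12 for Rbl1 and -0.077 to 0.10 for Rbl2 on addback. The cause was not tested. The labels state no pairing of libraries by replicate number. Same-numbered deviations correlated at 0.402, 0.047, 0.012 and 0.127 in the lines, where different-numbered ones lay from -0.288 to 0.188. On addback same-numbered deviations correlated at 0.032, 0.012 and 0.079, and different-numbered ones lay from -0.080 to 0.051. With the block Cdkn2d also passed on addback (limma adjusted p = 0.0372), and no other call of the 10 genes changed. Other alternatives were a pseudocount of 0.25, a mean of at least 1 CPM and median-of-ratios scaling, under which no call of the 10 genes changed. Depth limits Cdkn2b most, with 4 to 9 reads in empty vector libraries.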
